A study of Mus musculus with 16 samples.

Results

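The microRNAs mmu-miR-143 and mmu-miR-145 were followed in developing sciatic nerves with and without Dicer in Schwann cells. Every probe of the Agilent mouse miRNA array that carries either name was taken, which gave 4 of the 1857 miRNA probes and 2 of the 650 miRNA names. Each probe was printed as 10 spots. The nerves came from Dicer fl/fl Dhh-Cre+ mice, in which both Dicer1 alleles are floxed, and from Dicer wt/fl Dhh-Cre+ mice, which keep 1 intact allele and served as controls. Both genotypes carry the Dhh-Cre transgene, which is driven by the desert hedgehog promoter in the Schwann cell lineage, and the floxed allele of the Dicer1tm1Bdh/J strain. Nerves were taken at embryonic day 17 (E17), before myelination, and at postnatal day 4 (P4), when control nerves myelinate. The groups are named wt-E17, fl-E17, wt-P4 and fl-P4, with 4 mice each and 1 array per mouse. Total RNA of the whole nerve was labeled, so RNA of the cells that keep Dicer was measured together with that of Schwann cells, and fewer cells of a type and less RNA per cell cannot be told apart.

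A microRNA is cut by Dicer from a hairpin precursor and lowers the output of messenger RNAs that pair with its seed, the bases near its 5′ end. miR-143 and miR-145 have different seeds but are made from a shared primary transcript, so they usually appear in the same cells. They are known as microRNAs of vascular smooth muscle, pericytes and other mesenchymal cells, where serum response factor and myocardin drive their transcription and where they favor the contractile state. In the RefSeq gene table of GRCm38.p6 the genes Mir145a and Mir143 are direct neighbors and both lie within the span of the lncRNA gene Carmn.

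No mature sequence was matched to either name. For the microRNAs that serve as landmarks of other cells, the RefSeq mature sequences (GRCm38.p6) are shown so that they can be recognized, with the seed (bases 2 to 8) in capitals. miR-199a-5p and miR-199a-3p are the arms of a stromal hairpin, and miR-338-3p is a microRNA of myelinating glia.
mmu-miR-199a-5p: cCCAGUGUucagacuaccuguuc
mmu-miR-199a-3p: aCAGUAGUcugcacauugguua
mmu-miR-338-3p: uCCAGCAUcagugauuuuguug
The 3 seeds differ from each other.

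The landmarks placed the tissue. miR-338-3p was detected on every array. Its normalized log2 signal rose by 0.87 from wt-E17 to wt-P4 (limma, adjusted p = 0.00414) and fell by 2.85 from wt-P4 to fl-P4 (limma, adjusted p = 9.29e-08). Dicer1 itself is not measured by a miRNA array, so the deletion was not checked in these data. Summed over all miRNAs, the signal above background ran from 36495 to 60374 scanner units on the 8 E17 arrays, from 122860 to 154076 in wt-P4 and from 56841 to 83630 in fl-P4. All E17 arrays were on 1 slide and all P4 arrays on another, so an age difference and a slide difference cannot be told apart, whereas both genotypes of an age shared a slide. The array wt-P4 2 (replicate 2 of wt-P4) stood apart for miR-143 and also had the highest miR-145 signal of its group. The main group differences and the correlations between miR-143 and miR-145 probes are given with and without it. Correlations with other miRNAs and ranks among undetected probes are given only with it.

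miR-143 was detected by the scanner software on all 16 arrays, and its signal was higher at P4 than at E17 in both genotypes. Its gene signal, the background-subtracted signal that the software gives for the miRNA, was 14.6, 16.6, 10.2 and 32.8 scanner units on the arrays of wt-E17. In fl-E17 it was 12.8, 21.7, 22.7 and 20.8 units. Both E17 groups overlapped, and the array wt-E17 4 was the highest of them. In wt-P4 the gene signal was 68.9, 171.5, 57.9 and 50.5 units. In fl-P4 it was 72.0, 74.1, 44.5 and 42.2 units. Every P4 array lay above every E17 array, the 2 genotypes overlapped at both ages, and wt-P4 2 lay far above the other P4 arrays. The share of all expressed miRNAs whose gene signal separated the ages in this way was not counted. The separation is therefore not shown to be particular to miR-143.

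The means of the gene signal were 18.6 ± 9.84 units in wt-E17, 19.5 ± 4.55 in fl-E17, 87.2 ± 56.7 in wt-P4 and 58.2 ± 17.2 in fl-P4 (SD, n = 4 each). From E17 to P4 the geometric mean was 4.54-fold higher in controls, a log2 difference of 2.18, and 2.95-fold higher in mutants, a log2 difference of 1.56. In both cases the exact two-sided permutation test gave p = 0.0286, the smallest that 4 against 4 arrays allow, and p = 0.0762 after Benjamini-Hochberg adjustment over the 8 tests made on the gene signals of both microRNAs. Without wt-P4 2 the log2 difference in controls was 1.80. Between mutants and controls the log2 difference was −0.45 at P4 (exact permutation p = 0.457, adjusted p = 0.724) and 0.17 at E17 (exact permutation p = 0.686, adjusted p = 0.784), neither beyond the spread between mice. Without wt-P4 2 the difference at P4 was −0.06.

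**Figure D1:**
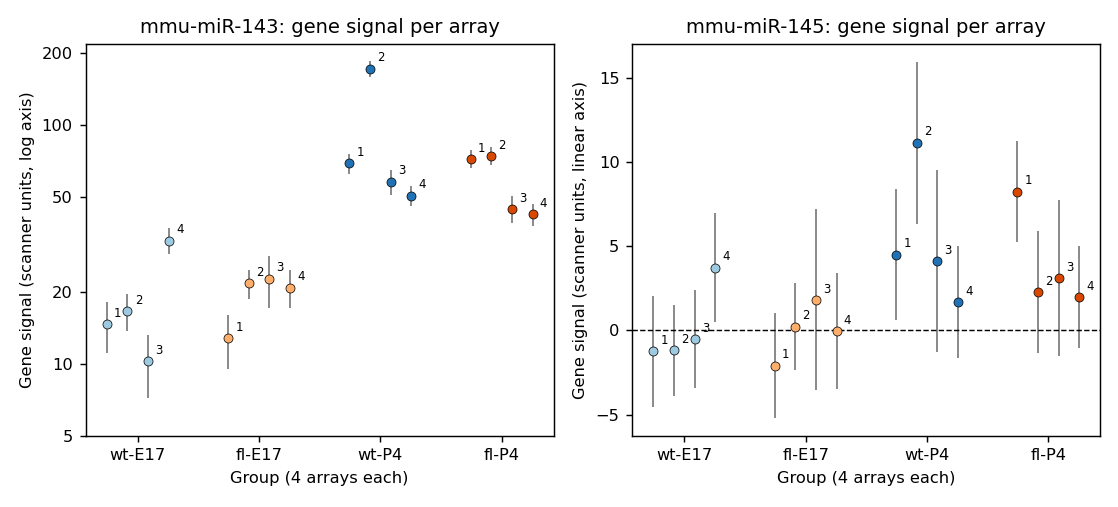
Gene signal of mmu-miR-143 (left, log axis) and mmu-miR-145 (right, linear axis, dashed line at 0) on each of the 16 arrays by group, in scanner units. Points are arrays with their replicate number, and bars are the software's own error of the signal. For mmu-miR-143 every P4 array lies above every E17 array and wt-P4 2 is highest at 171.5, while no mmu-miR-145 signal was called detected.

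The total signal also differed between the groups, so the share of miR-143 in the summed signal of all miRNAs was set beside it. The share was 0.0361% ± 0.0123 in wt-E17, 0.0450% ± 0.00948 in fl-E17, 0.0624% ± 0.0330 in wt-P4 and 0.0840% ± 0.0218 in fl-P4 (SD, n = 4 each). From E17 to P4 the share was 1.65-fold higher in controls, with overlapping groups (exact permutation p = 0.143, adjusted p = 0.286), and 1.85-fold higher in mutants, without overlap (exact permutation p = 0.0286, adjusted p = 0.229). The age difference was thus smaller as a share than as a signal. In mutants against controls at P4 the share was 1.43-fold higher while the gene signal was 0.734-fold, and neither passed a test (share: exact permutation p = 0.257, adjusted p = 0.411). With wt-P4 2 left out, the share was 1.32-fold higher from E17 to P4 in controls (exact permutation p = 0.286) and 1.79-fold higher in mutants than in controls at P4. The latter came without overlap (exact permutation p = 0.0571, the smallest that 3 against 4 arrays allow).

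The group comparison across all miRNAs rested on the median signal of each spot on the log2 scale, after quantile normalization of all arrays together. Of the 281 miRNAs expressed by the filter, with 681 probes, miR-143 was one and miR-145 was not, so 2 of the 4 probes entered the fit. The median spot signal includes the background of the slide, between 50 and 95 units per array, which compresses the log2 differences of probes as dim as these. The brighter probe, A_54_P2405, represents miR-143. On its normalized log2 scale wt-E17 was at 6.31, 6.32, 6.29 and 6.48, and fl-E17 was at 6.33, 6.39, 6.37 and 6.52. On the same scale wt-P4 was at 6.75, 7.21, 6.59 and 6.61, and fl-P4 was at 7.03, 6.998, 6.75 and 6.69. Again all P4 arrays were above all E17 arrays, with overlap between genotypes.

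From E17 to P4 the normalized log2 signal of A_54_P2405 was higher by 0.44 in controls (95% interval 0.18 to 0.70, limma, adjusted p = 0.00980) and by 0.46 in mutants (95% interval 0.21 to 0.72, limma, adjusted p = 0.0112). Both had an adjusted p of at most 0.05, but neither reached the size of 0.5 that a call also asked for, so 0 of the 2 miR-143 probes were called in either comparison. Over all 681 probes, 12.8% were called from E17 to P4 in controls and 7.05% in mutants. With no limit on size, both miR-143 probes were higher at P4 in both genotypes, and so were 22.3% of all probes in controls and 14.8% in mutants. Without wt-P4 2 the difference in controls was 0.29 (limma, adjusted p = 0.0118). The second probe, A_54_P2404, differed by 0.32 in controls (limma, adjusted p = 0.0194) and by 0.36 in mutants (limma, adjusted p = 0.0165). In fl-E17 no array had this probe well above background, and there the difference to fl-P4 is at least 1.09-fold on the normalized scale. A_54_P2405 was well above background on 2 of 4 arrays in each E17 group and on all 4 in each P4 group.

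Loss of Dicer from Schwann cells was not accompanied by a called change of miR-143. At P4 the mutants differed from controls by 0.08 on the normalized log2 scale at A_54_P2405 (95% interval −0.18 to 0.33, limma, adjusted p = 0.635) and by 0.05 at A_54_P2404 (limma, adjusted p = 0.728). Of all probes, 14.5% were called in this comparison. At E17 the differences were 0.05 (95% interval −0.20 to 0.31, limma, adjusted p = 0.827) and 0.01 (limma, adjusted p = 0.954), in a comparison in which 2.79% of all probes were called. The difference between the mutant effects at P4 and E17 was 0.02 at A_54_P2405 (95% interval −0.34 to 0.39, limma, adjusted p = 0.957), with 6.61% of all probes called. These intervals lie on a scale that background compresses. Without wt-P4 2 the P4 difference was 0.21 (limma, adjusted p = 0.0484), still under the size limit.

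**Figure D2:**
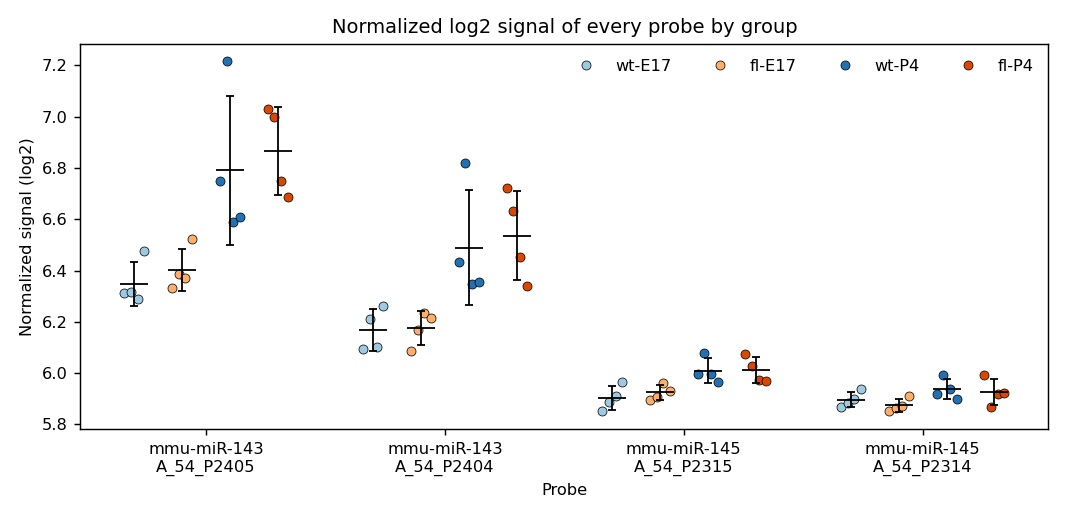
Normalized log2 signal of the 4 probes by group. Points are arrays, and black bars are the group mean ± SD (n = 4). Both mmu-miR-143 probes are higher at P4 than at E17 in both genotypes, whereas the mmu-miR-145 probes stay between 5.85 and 6.08.

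miR-145 was detected on 0 of the 16 arrays, and its opposite arm miR-145* likewise on 0, while the array carries no probe named miR-143*. The gene signal of miR-145 was −1.24, −1.19, −0.52 and 3.73 scanner units in wt-E17. In fl-E17 it was −2.10, 0.22, 1.82 and −0.04 units. In wt-P4 it was 4.51, 11.2, 4.14 and 1.70 units. In fl-P4 it was 8.26, 2.29, 3.12 and 1.99 units. The signal was below 0 on 5 arrays, all from E17, and above 0 on 8 of the 8 P4 arrays, with the highest value again on wt-P4 2. Its ratio to the software's error ran from −0.674 to 2.73, against 3.40 to 12.7 for miR-143.

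The mean gene signal of miR-145 was 0.195 ± 2.38 units in wt-E17, −0.0211 ± 1.61 in fl-E17, 5.38 ± 4.06 in wt-P4 and 3.92 ± 2.94 in fl-P4 (SD, n = 4 each). Compared as plain differences, P4 was higher than E17 by 5.19 units in controls (exact permutation p = 0.0571, adjusted p = 0.114) and by 3.94 units in mutants (exact permutation p = 0.0286, adjusted p = 0.0762). The arrays of the 2 ages overlapped in controls and not in mutants. Without wt-P4 2 the difference in controls was 3.26 units. Mutants and controls differed by −1.46 units at P4 (exact permutation p = 0.543) and by −0.22 units at E17 (exact permutation p = 0.857), less than the spread between mice. On no array did either probe stand well above background, so no fold change is given, and a level of miR-145 was not detectable at this signal.

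The probes of miR-145 were also fitted with no filter on expressed miRNAs. Their group means lay between 5.87 and 6.01 on the normalized log2 scale, and 0 of 10 tests over 2 probes and 5 comparisons were called. With means this close no test could reach the size limit of a call, so this count decides nothing. With no limit on size, 1 of the 10 tests passed the limit on adjusted p. It was A_54_P2315 between wt-E17 and wt-P4, with a log2 difference of 0.105 in size (limma, adjusted p = 0.0341). As both probes stayed near background throughout, these log2 differences of the miR-145 probes are given no direction. The differences in gene signal given before are likewise those of a miRNA that was not detected on any array.

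Across the 16 arrays the 4 probes varied together. These correlations are descriptions over arrays that share age groups, slides and scanner background, and no p is given. The 2 miR-143 probes, which read the same molecule, had r = 0.981. The miR-145 probe A_54_P2315 followed A_54_P2405 of miR-143 with r = 0.919, and with r = 0.795 after the group means were taken away. For the other miR-145 probe, A_54_P2314, these values were 0.702 and 0.587, and between the miR-145 probes r was 0.771. As a background, the 1052 probes of miRNAs that were never detected had a median r with A_54_P2405 of −0.0795, or −0.0109 after the group means were taken away. A_54_P2315 had the highest value of the 1052 and A_54_P2314 was among the highest 9, and after the group means were taken away they were among the highest 2 and 20. With wt-P4 2 left out, the r of A_54_P2315 with A_54_P2405 was 0.894, or 0.728 with the group means taken away, and for A_54_P2314 these values were 0.575 and 0.380. Thus the arrays with more miR-143 signal were also those on which the undetected miR-145 probes read slightly brighter.

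**Figure D3:**
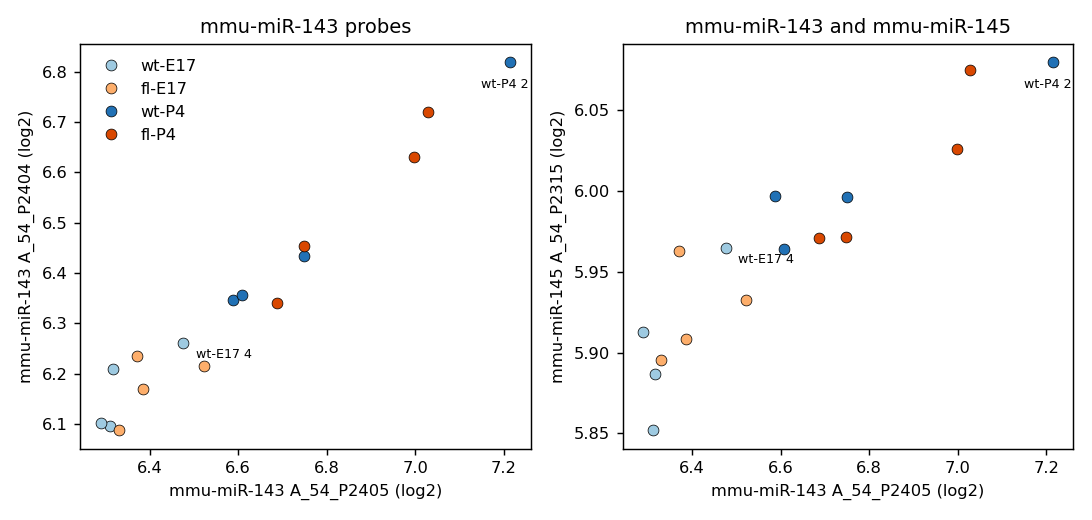
Normalized log2 signal of A_54_P2405 of mmu-miR-143 against the second mmu-miR-143 probe (left) and against A_54_P2315 of mmu-miR-145 (right). Each point is 1 of the 16 arrays, colored by group. The points rise together with r = 0.981 on the left and 0.919 on the right, where the vertical axis spans only 5.85 to 6.08.

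Among the other 280 expressed miRNAs, those whose profile over the 16 arrays was most like that of miR-143 were miR-221 (r = 0.832), miR-29a (r = 0.809), miR-497 (r = 0.796), miR-101a (r = 0.783) and miR-28 (r = 0.780), against a median r of 0.0774. miR-29a is known for repressing collagens, and miR-221 is a microRNA of endothelial and proliferating cells. With the group means taken away their r fell to between 0.229 and 0.474. All 5 had higher mean normalized log2 signals at P4 than at E17 in both genotypes, from 0.19 for miR-101a in either genotype up to 0.95 for miR-497 in controls and 0.97 for miR-29a in mutants.

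The stromal and mural landmarks were set beside miR-143 on both scales. Of 8 listed companions 6 were on the array and 4 were expressed, namely miR-199a-5p, miR-199a-3p, miR-199b* and miR-214. On the normalized scale all 4 were called higher in mutants at P4, in a comparison in which 6.61% of all probes were called higher. At E17 all 4 were called higher through at least 1 of their probes, but by the brightest probe only miR-199a-5p was, and 1.47% of all probes were called higher there. The median of their log2 differences was 1.12 at P4 and 0.55 at E17, beside medians of 0.02 and −0.00194 over all 681 probes. For miR-143 the same differences were 0.08 and 0.05. In controls 3 of the 4 were called lower at P4 than at E17 on the normalized scale through at least 1 of their probes. By the brightest probe only miR-199a-5p and miR-214 were, and 7.34% of all probes were called lower there. miR-214, for example, fell by 1.15 on the normalized log2 scale (limma, adjusted p = 0.00113). In gene signal the picture differed between the members. miR-214 overlapped between ages in controls, at 267 to 607 units in wt-E17 and 454 to 561 in wt-P4. miR-199a-5p was higher at P4 without overlap, at 254 to 510 units in wt-E17 and 541 to 791 in wt-P4. So was miR-199a-3p, at 1246 to 2214 and 2997 to 4123 units. The summed stromal and mural list was higher on every P4 array than on every E17 array, as miR-143 was. No share over all miRNAs stands beside this likeness. The sum ranged from 2286 to 4204 units in wt-E17, from 3736 to 4468 in fl-E17, from 5432 to 7359 in wt-P4 and from 5306 to 9941 in fl-P4. The normalized profile of miR-143 over the 16 arrays had r = 0.13 with miR-199b*, −0.04 with miR-199a-5p, −0.20 with miR-199a-3p and −0.42 with miR-214. With the group means taken away these were 0.29, 0.34, 0.34 and 0.13. With miR-126-3p, the microRNA of endothelial cells, it was 0.57, and 0.76 after the group means were taken away. By the latter measure miR-126-5p had 0.80, and miR-1224 and miR-135a*, which are on none of the lists, had 0.70 and 0.68. These r were not computed without wt-P4 2, where miR-143 and miR-126-3p were both high. On the normalized scale miR-126-3p was called 0.60 higher in mutants at P4 (limma, adjusted p = 0.0123). Its normalized difference between ages in controls was 0.13 (limma, adjusted p = 0.597). In gene signal both comparisons read otherwise. At P4 its median was lower in mutants, 1091 units in fl-P4 against 1236 in wt-P4, with overlap. In controls it was higher at P4 without overlap, at 344 to 604 units in wt-E17 and 1132 to 2364 in wt-P4.

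The arrays with the most miR-143 in the control groups carried more of several landmarks as well. On wt-P4 2 the gene signal of miR-143 was 2.96-fold the median of the other wt-P4 arrays. On that array miR-126-3p stood at 2364 units against 1132 to 1281 on the others, and the erythroid miR-451 at 1716 units against 205 to 355. The 4 skeletal muscle miRNAs summed to 572 units against 259 to 343, and the stromal and mural list to 7359 units against 5432 to 5746. The 5 miRNAs of the myelinating glia list summed to 5238 units, within the 4955 to 5655 of the others. On wt-E17 4, where miR-143 was 2.24-fold the median of the other wt-E17 arrays, miR-126-3p was at 604 units against 344 to 470 and miR-451 at 3208 units against 769 to 1629. Both arrays thus had high endothelial and erythroid signals together with high miR-143. They also had the highest total signals of their groups, 154076 units on wt-P4 2 and 60374 on wt-E17 4. In mutants the erythroid list did not follow miR-143. Its highest sum in fl-E17, 4787 units on fl-E17 1, came with the lowest miR-143 of that group, 12.8 units. On fl-P4 1 and fl-P4 2 it summed to 524 and 453 units. On fl-P4 3 and fl-P4 4, where miR-143 was lower, it summed to 1109 and 1218 units. The part of these cells in the miR-143 values was not tested.

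The lists also differed between the groups in gene signal. The summed signal of the 2 endothelial miRNAs was 348 to 613 units in wt-E17 and 445 to 569 in fl-E17. It was 1138 to 2381 units in wt-P4 and 927 to 1512 in fl-P4. Its values were thus higher on all P4 arrays, as were those of miR-143, the stromal and mural list and the leukocyte list. The 3 erythroid miRNAs ranged from 788 to 3283 units in wt-E17, from 2103 to 4787 in fl-E17, from 205 to 1746 in wt-P4 and from 453 to 1218 in fl-P4. The 4 skeletal muscle miRNAs ranged from 198 to 988 units and overlapped between all groups. The leukocyte list ranged from 87.0 to 187 units on the E17 arrays and from 228 to 417 units on the P4 arrays. The neuron list ranged from 258 to 280 units in wt-P4, above the 82.4 to 216 units of the other groups. The calls that follow are on the normalized scale, not in gene signal. A miRNA counts as called through at least 1 of its probes, whereas the percentages are of single probes. In mutants against controls at P4, 1 of 2 endothelial, 1 of 3 erythroid, 1 of 3 expressed leukocyte and 0 of 4 skeletal muscle miRNAs were called higher, beside 6.61% of all probes. In the same comparison 4 of 4 expressed miRNAs of myelinating glia and 2 of 4 of neurons were called lower, beside 7.93% of all probes. The 2 of the neuron list were miR-9 and its opposite arm miR-9*. The others were higher in mutants without a call, miR-124 by 0.31 (limma, adjusted p = 0.00142) and miR-128 by 0.10 (limma, adjusted p = 0.308). The neuron list thus did not move in 1 direction.

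**Figure D4:**
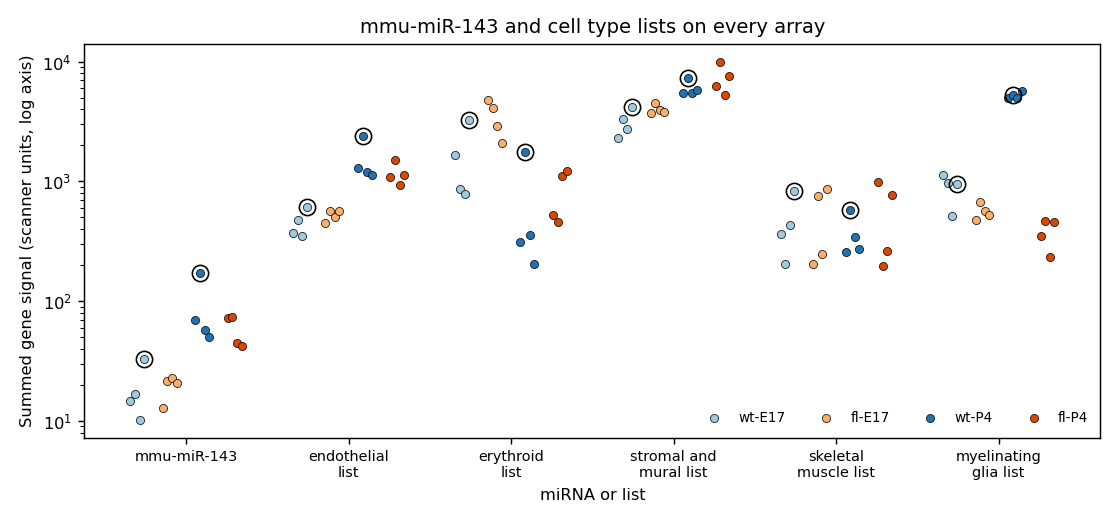
Gene signal of mmu-miR-143 and summed gene signal of 5 cell type lists on each of the 16 arrays by group (scanner units, log axis), in replicate order within a group. Rings mark wt-P4 2 and wt-E17 4, which are the highest arrays of their group for mmu-miR-143 and for every list shown except myelinating glia.

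The processing set the size of the age difference of miR-143 more than its direction. On signals from which background had been subtracted before quantile normalization, the log2 difference from E17 to P4 was 1.28 in controls and 1.09 in mutants, and both were called. At A_54_P2405 the difference between mutants and controls at P4 lay between −0.28 and 0.53 over the settings tried and was called in none.

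**Figure D5:**
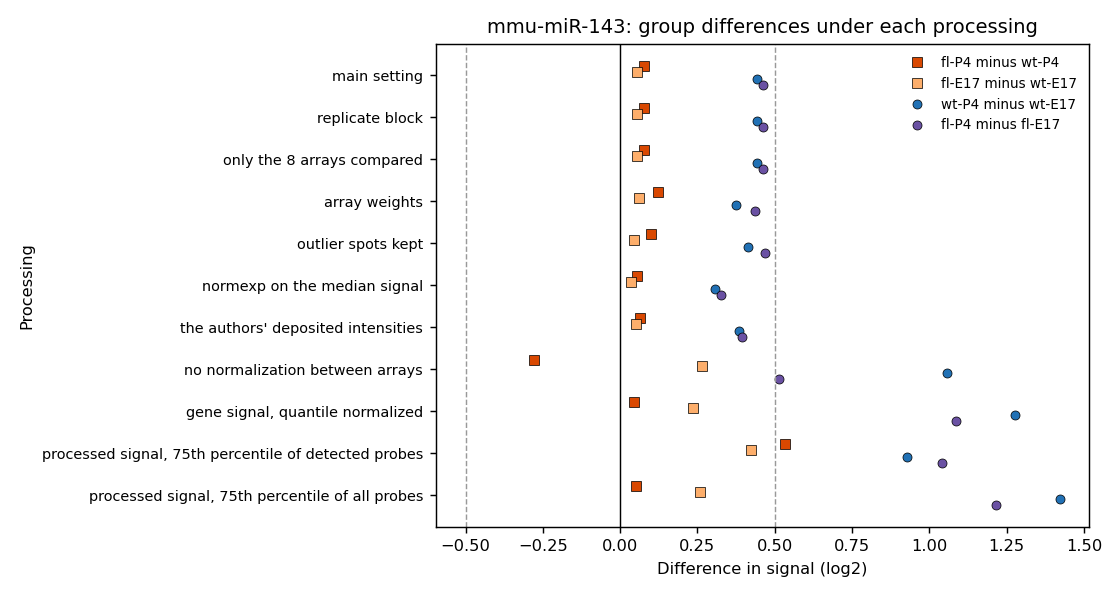
Log2 difference of mmu-miR-143 (A_54_P2405, or the gene signal where named) in the 4 group comparisons under each processing. Dashed lines mark the size of 0.5 that a call asked for. The age differences are above 0 in every setting and pass 0.5 in those that subtract background or leave out quantile normalization, except after normexp on the median signal.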

How the data were processed

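Sciatic nerve RNA of 16 mice was hybridized to 1 array per mouse. The authors deposited, per the file headers, the intensity of every spot from Agilent Feature Extraction 10.5.1.1, not normalized between arrays. Their second table, of quantile normalized probe intensities, served as an alternative. Groups follow the labels. The members and the lists of cell types were chosen with earlier results of these data known. Medians of the 13000 miRNA spots were log2 transformed, quantile normalized over all 16 arrays, and averaged per probe without outlier spots. A miRNA was taken as expressed when detected on 0.5 or more of the arrays in 1 group. limma 3.58.1 (lmFit and eBayes, R 4.3.3) fitted all 16 arrays, with Benjamini-Hochberg adjustment over 681 probes, in place of the methods' test. Calls needed an adjusted p of 0.05 or less and a log2 difference of 0.5 or more in either direction. Gene signals were compared by exact permutation over 70 assignments (scipy 1.17.1), on the log2 scale for miR-143 and the linear scale for miR-145. Each miRNA is represented by its brightest probe, and the 5 miRNAs of most similar profile were named by Pearson's r. The fit was tested on simulated data with 200 of 681 probes changed by a log2 difference of 1, of which 98% to 99.5% were recovered. That change is larger than any difference of miR-143 in this fit, so recovery of differences as small as those was not tested. Between 197 and 260 miRNAs were detected per array, no spot was saturated, and the number of arrays limits the precision.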

Additional observations from a re-analysis of the deposited data

Results flagged for a closer look

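Of 28 sets of 4 arrays examined for 1 array far from the others, 3 held one. Chance gives about 1 in 20 for a single set of normally distributed values. The sets draw on the same arrays and are not independent, so their count cannot be set against chance. The normalized log2 signal of miR-143 probe A_54_P2405 was 6.48 on wt-E17 4 and 6.29 to 6.32 on the other wt-E17 arrays. The gene signal of mmu-miR-143 was 171.5 units on wt-P4 2 and 50.5 to 68.9 on the other wt-P4 arrays. The gene signal of mmu-miR-145 was 3.73 units on wt-E17 4 and −1.24 to −0.52 on the other wt-E17 arrays, with no array called detected.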

How the results depend on the processing

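The age differences of miR-143 kept their direction in every setting, and no setting called a difference between genotypes. For A_54_P2405 the difference from E17 to P4 was called without normalization between arrays (1.06 in controls, 0.51 in mutants), with processed signals scaled to the 75th percentile of detected probes (0.93, 1.04) or of all probes (1.42, 1.22), and with quantile normalized gene signals (1.28, 1.09). Without normalization the P4 difference between genotypes turned to −0.28 (A_54_P2404: −0.21) and the difference between mutant effects to −0.54 (A_54_P2404: −0.48). The latter was also −0.21 (A_54_P2404: −0.16) at the 75th percentile of all probes and −0.19 for gene signals. Array weights gave −0.0099 at E17 for A_54_P2404, and the share of summed signal 0.52 at P4 for the gene signal (0.84 with wt-P4 2 left out). Over settings the adjusted p of A_54_P2405 ran from 2.19e-06 to 0.117 for age in controls and from 0.00253 to 0.0669 in mutants, the methods' test giving 0.117 and 0.0620.

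Leaving out 1 array at a time, A_54_P2405 ranged from 0.01 to 0.21 (genotype, P4), 0.01 to 0.10 (genotype, E17), 0.29 to 0.49 (age, controls), 0.41 to 0.52 (age, mutants, called in 3 of 16 fits, without fl-E17 4, fl-P4 3 or fl-P4 4) and −0.043 to 0.16 (difference of effects). A_54_P2404 ranged from −0.014 to 0.15, −0.014 to 0.041, 0.20 to 0.36, 0.30 to 0.43 and −0.024 to 0.14 in the same order. The log2 gene signal of miR-143 ranged from −0.65 to −0.06, −0.068 to 0.49, 1.80 to 2.50 and 1.37 to 1.70, and that of miR-145 in units from −2.91 to 0.466, −0.831 to 0.963, 3.26 to 6.41 and 2.49 to 4.58. The miR-145 genotype difference turned sign without wt-P4 2 at P4, and without wt-E17 4 (0.963) or fl-E17 1 (0.476) at E17. With 3 against 4 arrays the permutation p cannot go below 0.0571.

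With a replicate block the differences of A_54_P2405 were unchanged (0.08, 0.05, 0.44 and 0.46) and no call of miR-143 moved. The block was fixed for the comparisons between genotypes and for the difference of effects. For the age comparisons it was random, with a correlation of 0.141. The methods describe littermate pairs of mutants and controls at each age, but no label says which arrays form a pair. Same-numbered arrays had r from −0.519 to 0.459, so a pairing by number was not established. The main fit and the permutation tests therefore treated the arrays as unpaired. Called probes, 99 (genotype, P4), 19 (genotype, E17), 87 (age, controls), 48 (age, mutants) and 45 (difference of effects), ranged over all settings from 21 to 349, 0 to 85, 19 to 303, 11 to 186 and 12 to 172, with the lowest at a size limit of 1. Normexp on mean spot signals could not be run on the columns used here, and normexp on median signals, the linear scale for miR-145, the share, and the values without wt-P4 2 for the share and the probe correlations, were added after seeing the data. What causes these shifts was not tested. Signal over background limits miR-145 on all arrays and miR-143 at E17.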
